A study of Citrus unshiu with 2 samples.

Results

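The genes described are 6 abscisic acid response and LEA genes out of 23159 genes measured in mandarin stems under light drought. They are ABSCISIC ACID-INSENSITIVE 5 (ABI5), the kinase SAPK2, an abscisic acid 8'-hydroxylase, the late embryogenesis abundant (LEA) protein D-29, an 11 kDa LEA protein and Lea5. All 6 were found in the table of all genes by their identifiers. They were chosen by their descriptions and on the very light drought and control values given below, so these values describe the 6 genes and test nothing.

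The study asked how light drought bears on the forming of flowering shoots, with flowering and methylation genes in view. Its samples were mature stems of satsuma mandarin (Citrus unshiu), labelled as wild type and taken at day 75. For light drought the soil dried out by itself down to a set moisture, and the control trees had normal water. All trees grew under a rain-proof tunnel with their roots confined and under natural day length, and the labels give no number of trees for a library. There is 1 RNA-seq library per group, which gives no spread between trees and no p-value for the conditions.

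Abscisic acid is the hormone that plants make when water is short and when seeds mature. Receptors of the PYR/PYL family bind it and then hold back type 2C protein phosphatases, which frees SnRK2 kinases such as SAPK2 to phosphorylate bZIP transcription factors such as ABI5. These factors switch on genes with abscisic acid response elements, among them genes of LEA proteins, which are mostly unfolded, water-loving proteins known from drying seeds and water-stressed tissue. The 8'-hydroxylases of the CYP707A family break the hormone down.

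Values are RPKM, reads scaled to gene length and to the library total. The light drought library held 31760704 reads in genes and the normal water library 32856618. The log2 ratio used throughout is log2((light drought + 0.5)/(normal water + 0.5)) on RPKM, and the added 0.5 makes it smaller than the true change for genes with low values. A gene is called lower or higher at 2-fold or more on this scale, among the 15654 kept genes that reach RPKM 1 in either library. Counting intervals (95%, exact conditional) are of the log2 RPKM ratio without the added 0.5, so they can lie beyond the ratio they stand beside. They hold the error of counting reads alone. Without molecular identifiers 1 molecule may give several reads, and the spread between trees is not in these intervals.

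In light drought stems, ABI5, SAPK2, the 8'-hydroxylase, D-29 and the 11 kDa LEA protein stood lower and Lea5 stood higher than in normally watered stems. By the 2-fold rule 5 of the 6 were lower and 0 higher. Among all kept genes 2.12% were lower and 0.882% higher, and among the kept genes that the authors' deposited table describes 14.9% were lower and 5.99% higher. The 6 were picked for such differences, so nothing is read from their count. All 6 passed the minimum of RPKM 1, but ABI5 passed only through the control library.

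**Figure D1:**
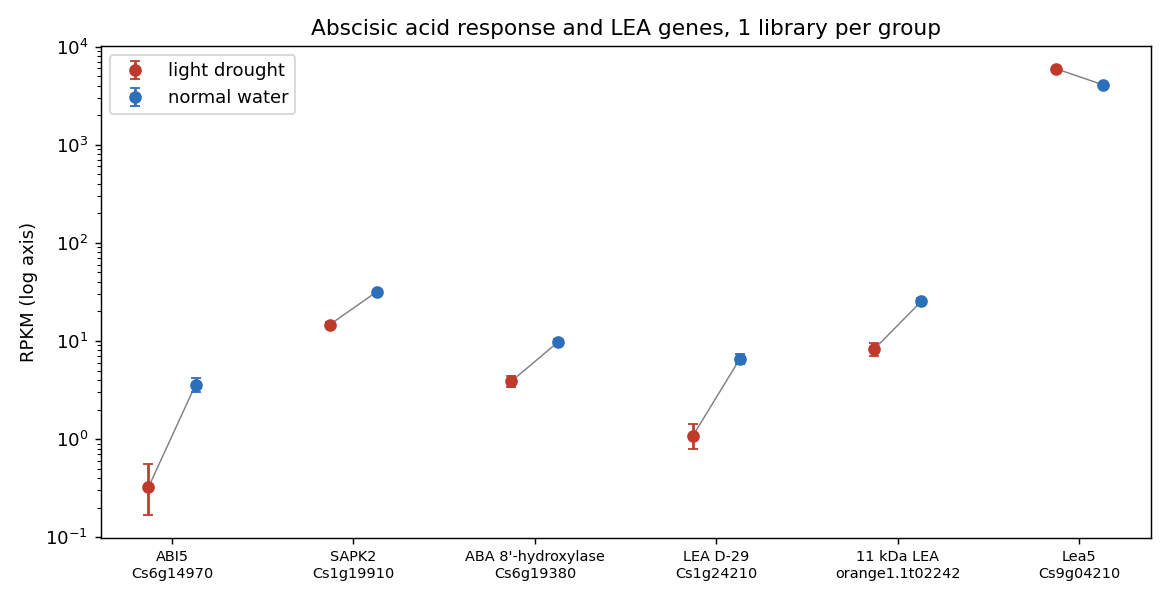
RPKM of the 6 genes (log axis) in the light drought library (left point of each pair) and the normal water library (right point); bars are exact 95% Poisson counting intervals, there is 1 library per group. The levels span from 0.323 for ABI5 in light drought to 5955 for Lea5 in light drought, and Lea5 is the gene of the 6 whose light drought point lies above its control point.

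The transcription factor ABI5 (Cs6g14970) had an RPKM of 0.323 in light drought, against 3.59 in normal water. The light drought value rests on 12 reads and the normal water value on 138. The log2 ratio was -2.31, with a counting interval from -4.46 to -2.62. Without the added 0.5 the RPKM was 11.1-fold lower in light drought. ABI5 had the lowest RPKM of the 6 in both libraries. Over all 23159 genes, kept or not, its level ranked 17327 from the highest in light drought and 11536 in normal water. The gene model is a single exon of 1170 bases on the minus strand of chromosome 6, from 16096707 to 16097876. ABI5 is best known from seeds and young seedlings of Arabidopsis, where it binds promoters of LEA genes.

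The gene model next to ABI5, Cs6g14960, carries the same InterPro entry for ABI5 proteins but no gene description, and it was lower too. It stood at RPKM 1.09 in light drought, against 16.5 in normal water, from 11 reads in light drought and 172 in normal water. Its log2 ratio was -3.42, with a counting interval from -4.95 to -3.04. It lies on the same strand, 77 bases beyond the lower end of ABI5 (16095955 to 16096629), and is 318 exon bases long in 4 exons. Since both models lie on the minus strand, it is on the downstream side of ABI5. Summed over both models there were 23 reads in light drought and 310 in normal water, a log2 ratio of -3.70 after scaling to the library totals (counting interval -4.38 to -3.09). Whether the models are parts of 1 gene was not tested. The level of Cs6g14960 was 3.37 times that of ABI5 in light drought and 4.59 times in normal water, per length.

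None of the other bZIP genes that the authors' deposited table annotates was lower. ABSCISIC ACID-INSENSITIVE 5-like protein 1 (Cs8g15050), of the same subfamily by its name, stood at RPKM 2.17 in light drought and 1.86 in normal water (log2 ratio 0.18, counting interval -0.11 to 0.55). Of the 6 kept genes with the Pfam bZIP domain, 2 were lower, which are ABI5 and Cs6g14960, and 1 was higher. The higher gene was the light-inducible protein CPRF2 (Cs3g10860), at RPKM 2.24 in light drought against 0.820 in normal water (log2 ratio 1.05). It passed the minimum through the light drought library alone, so its ratio had to be above 0. Without ABI5, which was chosen on its values, 1 of 5 was lower and 1 higher. Among all kept genes that the authors' deposited table describes, 14.9% were lower and 5.99% higher. Since ABI5 and Cs6g14960 may be parts of 1 gene, nothing particular to bZIP genes is read from these counts. The remaining bZIP genes, Cs3g16310 and Cs8g15030, had log2 ratios of -0.02 and 0.45. This family list, like the other lists by Pfam, InterPro, GO or KEGG entry below, was drawn up after values were seen.

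SAPK2 (Cs1g19910), a SnRK2 kinase named after its rice relative that osmotic stress activates, had an RPKM of 14.7 in light drought, against 31.9 in normal water. There were 905 reads in light drought and 2032 in normal water. The log2 ratio was -1.09, with a counting interval from -1.233 to -1.004. It is the gene of the 6 that lies nearest inside the 2-fold limit. The gene model has 7 exons, 1940 bases in all, on chromosome 1 from 23066381 to 23069843. It was the only gene that the descriptions name as a SnRK2 kinase, so nothing can be said of the rest of that family.

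The abscisic acid 8'-hydroxylase (Cs6g19380), an enzyme of the CYP707A family that starts the breakdown of the hormone, had an RPKM of 3.88 in light drought, against 9.84 in normal water. It rests on 268 reads in light drought and 703 in normal water. The log2 ratio was -1.24, with a counting interval from -1.55 to -1.14. The model has 5 exons and 2175 bases on chromosome 6, from 19224233 to 19226855. A relative described as 8'-hydroxylase 4-like (Cs8g05940) was at RPKM 0.342 in light drought and 0.528 in normal water, under the minimum in both. The counting interval of its log2 RPKM ratio ran from -1.51 to 0.22 and took in 0; with 20 reads in light drought and 32 in normal water a difference was not detectable at this depth.

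LEA protein D-29 (Cs1g24210), named after a seed protein of cotton, had an RPKM of 1.08 in light drought, against 6.59 in normal water. There were 48 reads in light drought and 304 in normal water. The log2 ratio was -2.17, with a counting interval from -3.08 to -2.17. Without the added 0.5 it was 6.12-fold lower in light drought. Its model has 3 exons and 1405 bases on chromosome 1, from 26648426 to 26650189. The files give D-29 no Pfam, InterPro or GO entry, so its LEA identity rests on the description alone.

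The 11 kDa LEA protein (orange1.1t02242), of LEA group 1 by its Pfam entry, had an RPKM of 8.25 in light drought, against 25.4 in normal water. There were 182 reads in light drought and 579 in normal water. Its log2 ratio was -1.56, with a counting interval from -1.87 to -1.38. It sits on sequence that the files place on no numbered chromosome, from 34057910 to 34058682, in 2 exons of 695 bases in all.

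The next gene model, orange1.1t02243, belongs to the same LEA group by its Pfam and InterPro entries, was far more abundant and stood lower to a like degree. It had an RPKM of 465 in light drought, against 1531 in normal water, from 12588 reads in light drought and 42870 in normal water. Its log2 ratio was -1.72, with a counting interval from -1.75 to -1.69, which overlaps the interval of the 11 kDa gene. It starts 2719 bases after the 11 kDa gene, on the same strand (34061402 to 34062336). Its level was 56.4 times that of the 11 kDa gene in light drought and 60.4 times in normal water, per length. It has no gene description in the files.

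Lea5 (Cs9g04210), of the LEA5 type known from cotton and, as SAG21, from Arabidopsis, had an RPKM of 5955 in light drought, against 4085 in normal water. Its reads were 55605 in light drought, 0.175% of that library, and 39465 in normal water, 0.120% of that library. The log2 ratio was 0.54, with a counting interval from 0.52 to 0.56, so it was 1.46-fold higher in light drought and under the 2-fold limit. By RPKM it was the third most abundant of all genes in light drought (rank 3) and the fourth in normal water (rank 4). Its model is short, 294 bases in 2 exons on chromosome 9, from 2313276 to 2314373. The narrow interval reflects its many reads and says nothing about the spread between trees.

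**Figure D2:**
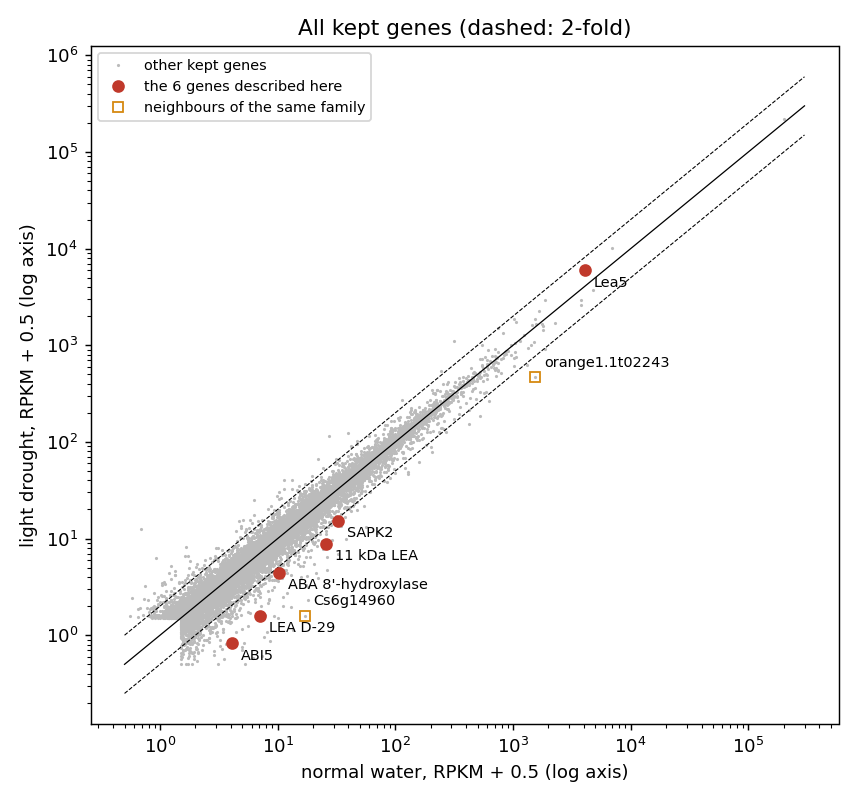
RPKM + 0.5 in light drought (vertical, log axis) against normal water (horizontal, log axis) for the 15654 kept genes; red points are the 6 genes, open squares the neighbouring models of the same family, the solid line equal values and the dashed lines a 2-fold difference. ABI5, D-29, the 11 kDa gene, the 8'-hydroxylase, Cs6g14960 and orange1.1t02243 lie below the lower dashed line, SAPK2 close to it, and Lea5 between the lines.

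Ordered by log2 ratio among the 15654 kept genes, ABI5 was the 24th lowest and D-29 the 32nd. The 11 kDa gene ranked 81, the 8'-hydroxylase 180 and SAPK2 259 from the lowest, and Lea5 ranked 14907. The counting intervals of ABI5 and D-29 overlap each other and do not overlap that of SAPK2, which speaks of counting error alone. The levels ran in the same order in both libraries from the lowest, with ABI5 first, then D-29, the 8'-hydroxylase, the 11 kDa gene, SAPK2 and Lea5.

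Apart from the pairs at ABI5 and at the 11 kDa gene, the gene models beside the 6 genes were not called. Of the 12 models directly next to them, 2 were lower (Cs6g14960 and orange1.1t02243), 0 were higher and 1 was not kept. Over 3 models on each side, 36 in all, the same 2 were lower, 0 were higher and 9 were not kept. Of all kept genes, 2.12% were lower and 0.882% higher. Beside D-29 the ratios were -0.11 for Cs1g24200 and -0.01 for Cs1g24220. Beside SAPK2 they were -0.08 for Cs1g19900 and -0.05 for Cs1g19920, described as pathogenesis-related protein 1. Beside the 8'-hydroxylase they were -0.42 for Cs6g19370 and -0.08 for Cs6g19390, which had 0 reads in light drought and 1 in normal water. On the other sides of the pairs, Cs6g14990 beyond ABI5 had a ratio of 0.24 and the fatty acid desaturase FAD2 (orange1.1t02241) before the 11 kDa gene one of -0.76. Beside Lea5, Cs9g04200 had a ratio of 0.24 and phylloplanin (Cs9g04220) one of -0.82, on 21 reads in light drought and 44 in normal water. None of the 6 gene models overlapped another model.

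**Figure D3:**
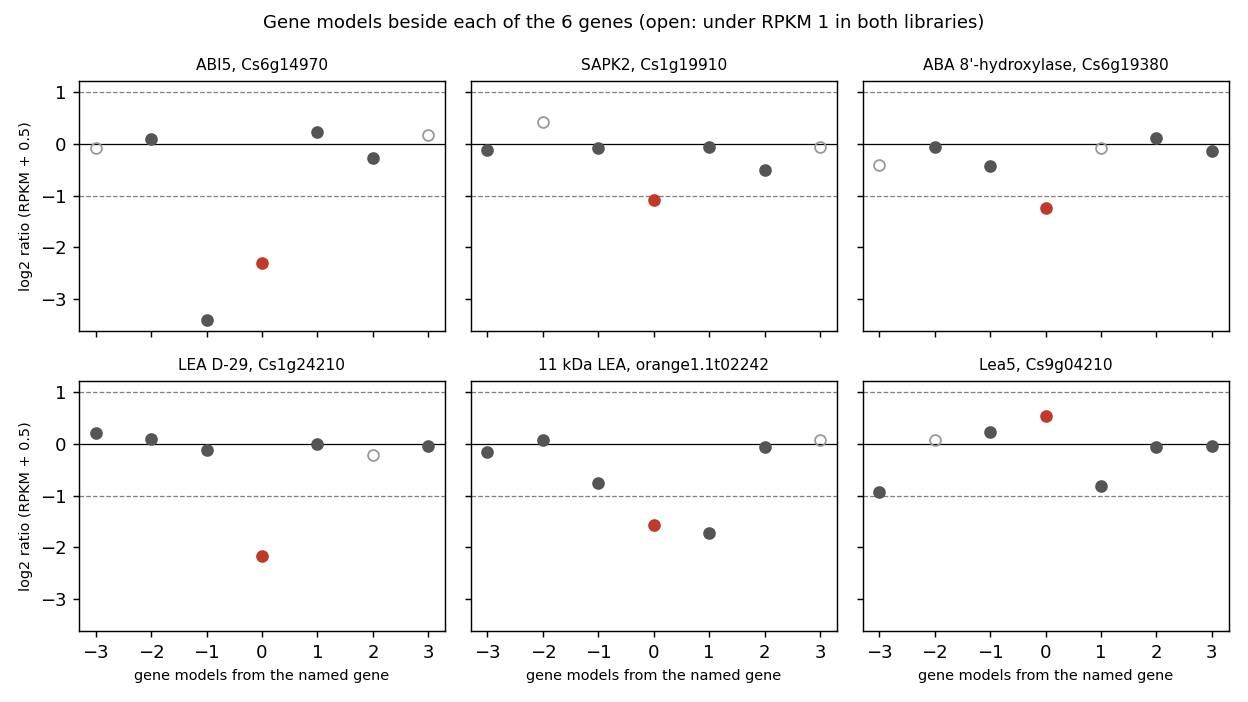
Log2 ratio (RPKM + 0.5, light drought over normal water) of each of the 6 genes (red, position 0) and of 3 gene models on each side in order along the chromosome; open points are models under RPKM 1 in both libraries and dashed lines mark 2-fold. Past the lower line beside a named gene lie Cs6g14960 at -3.42 and orange1.1t02243 at -1.72.

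Among the other abscisic acid genes that the descriptions name, few were lower and none was higher. The lists by description (making, breakdown, transport, receptors, phosphatases, kinases, transcription factors, response genes) held 20 genes, of which 16 were kept. Of these, 5 were lower and 0 higher, with a median log2 ratio of -0.32, against -0.23 for the 2055 kept genes of the described table and 0.0024 for all kept genes. Without ABI5, SAPK2 and the 8'-hydroxylase, 13 were kept, of which 2 were lower and 0 higher, with a median of -0.26. The share of 2 in 13 is close to the 14.9% of the described table, and 2 of the 13, PYR1 and phosphatase 2C 75, passed the minimum through the normal water library alone. The lists take their names from the 2568 described genes, so family members outside that table are not counted. That table holds 307 of the 332 kept genes called lower and 123 of the 138 called higher. It is thus rich in genes that differ, and family members that did not differ may be missing. The lists here and below are therefore no survey of whole families.

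The receptor PYR1 (orange1.1t01026), which binds abscisic acid, stood at RPKM 0.825 in light drought, against 1.69 in normal water, on 34 reads in light drought and 72 in normal water. The log2 ratio was -0.72 (counting interval -1.67 to -0.43), short of 2-fold. Among 5 type 2C phosphatases, 1 was lower, against 14.9% in the described table. It was protein phosphatase 2C 75 (Cs9g16370), at RPKM 0.438 in light drought (22 reads) against 1.62 in normal water (84 reads). This gene passed the minimum through the normal water library alone, so its ratio had to be below 0. Its log2 ratio was -1.17, with a counting interval from -2.63 to -1.19, and in Arabidopsis the phosphatase of that name is the seed regulator AHG1. The other phosphatases had log2 ratios of -0.33 (2C 11, Cs3g20550), -0.31 (2C 27, Cs4g01140), 0.39 (2C 51, Cs5g30740) and 0.46 (orange1.1t01278). This phosphatase family is large, and the names alone place these 4 in no pathway.

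ABC transporter G family member 22 (Cs6g13330), which in Arabidopsis bears on water loss through stomata, was lower, at RPKM 3.86 in light drought against 20.8 in normal water (300 reads in light drought and 1675 in normal water, log2 ratio -2.29, counting interval -2.61 to -2.25). It entered the transport list by its family number, and no entry in the files calls it an abscisic acid transporter. Member 31 (Cs8g16470) was under the minimum in both libraries, at 0.244 in light drought and 0.107 in normal water.

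The list for synthesis of the hormone matched 2 genes, and neither was lower by the rule. Violaxanthin de-epoxidase (Cs5g26080) acts in the xanthophyll cycle and is not itself a step of the hormone's synthesis. It stood at RPKM 12.1 in light drought and 7.47 in normal water (log2 ratio 0.66, counting interval 0.53 to 0.87). Molybdenum cofactor sulfurase (Cs7g14480), which activates the last enzyme of abscisic acid synthesis, stood at RPKM 1.97 in light drought (15 reads) and 3.04 in normal water (24 reads; log2 ratio -0.52, counting interval -1.66 to 0.36). The descriptions name no 9-cis-epoxycarotenoid dioxygenase, the step that usually limits the synthesis, so that enzyme was not assessed here.

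The other genes named for their answer to the hormone were neither lower nor higher by the rule. The list of transcription factors also took in ARM REPEAT PROTEIN INTERACTING WITH ABF2 (Cs5g31260), under the minimum at 0.474 in light drought and 0.619 in normal water, and, by a text match alone, SABRE (Cs3g17035, -0.13). HVA22-like protein c (Cs7g03990), of a family first found as induced by abscisic acid in barley, had RPKM 16.3 in light drought and 19.6 in normal water (log2 ratio -0.26). HVA22-like protein e (orange1.1t02608) had 62.0 in light drought and 56.4 in normal water (0.14). Of the 4 genes annotated by GO as responding to abscisic acid, ABI5 and Cs6g14960 were lower. Without ABI5, which was chosen on its values, 1 of 3 was lower, against 14.9% in the described table. The others were Cs8g18920, whose InterPro entry is the low-temperature-induced 78/65 kDa family, at 27.7 in light drought and 18.8 in normal water (0.54), and Cs7g26410, with the entry ASPG1, a guard cell protease of Arabidopsis, at 29.7 in light drought and 27.7 in normal water (0.10).

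**Figure D4:**
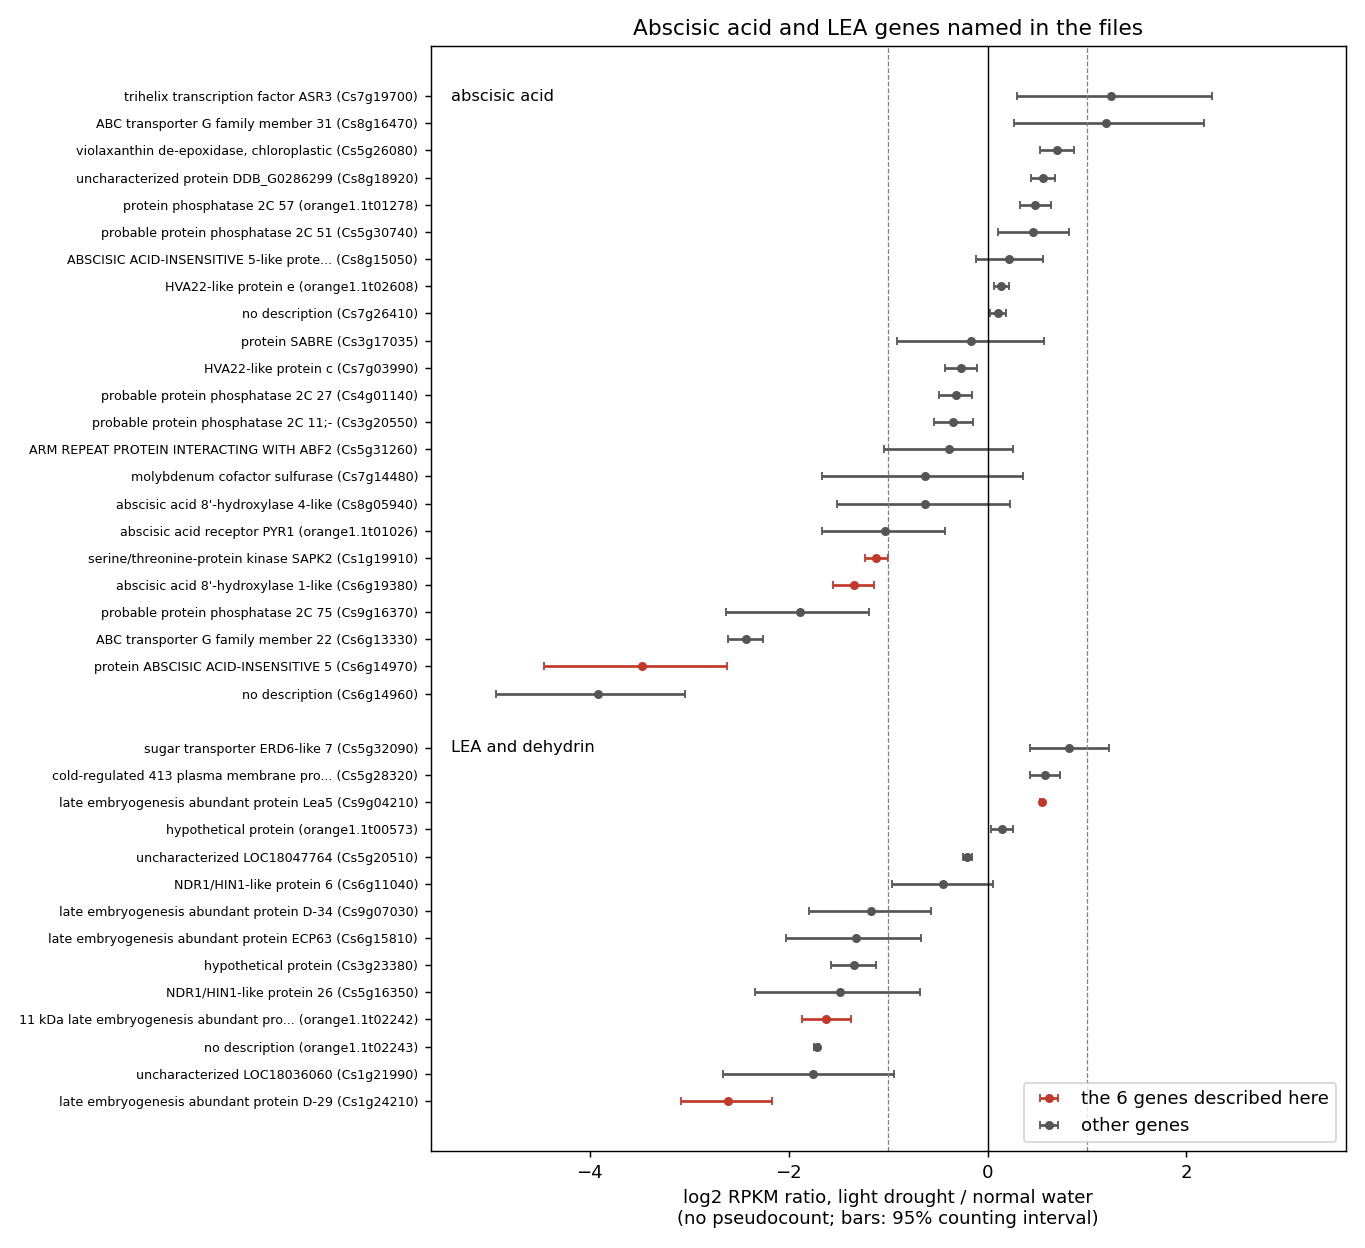
Log2 RPKM ratio (light drought over normal water, no pseudocount) with exact 95% counting intervals for the abscisic acid genes (upper block) and the LEA and dehydrin genes (lower block) named by description, Pfam, InterPro or GO entry, genes under the minimum included; red marks the 6 genes and dashed lines mark 2-fold. The ratios run from -3.92 for Cs6g14960 to 1.24 for the trihelix factor ASR3 (Cs7g19700), a text match under the minimum in both libraries.

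The LEA families held lower genes beside D-29 and the 11 kDa gene, and Lea5 had a ratio above 0. By Pfam or InterPro entry, with D-29 added by its description, 12 LEA genes were kept. D-29, the 11 kDa gene and Lea5 were chosen on their values, so the other 9 are counted without them. Of these 9, 3 were lower and 0 higher, with a median log2 ratio of -0.87, against 14.9% lower and a median of -0.23 in the described table. Ratios below 0 were found for 8 of the 9, against 1158 of 2055 genes in the described table and 7760 of all 15654 kept genes. However, 4 of the 9 (LEA-18, ECP63, D-34 and NDR1/HIN1-like protein 26) reached the minimum through the normal water library alone, so their ratios had to be below 0. Nothing particular to LEA genes is read from these counts. Of the 12, 5 hold the LEA-14 domain, a family of folded proteins that also takes in NDR1/HIN1-like defence proteins. Of these, 1 was lower, Cs3g23380 (no specific description), at RPKM 4.24 in light drought against 10.8 in normal water (log2 ratio -1.25). The other 4 ran from -0.97 for NDR1/HIN1-like protein 26 (Cs5g16350) to 0.14 for orange1.1t00573. The most abundant of them, Cs5g20510, annotated by GO as responding to desiccation, stood at 106 in light drought and 122 in normal water (-0.20).

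The other 7 LEA genes comprise D-29, both group 1 genes, Lea5, LEA-18, ECP63 and D-34. Without the 3 genes chosen on their values, 4 remain, of which orange1.1t02243 and LEA-18 were lower and 0 higher. LEA-18, ECP63 and D-34 passed the minimum through the normal water library alone. The LEA-18 gene (Cs1g21990) stood at RPKM 0.639 in light drought, against 2.16 in normal water, on 16 reads in light drought and 56 in normal water (log2 ratio -1.22, counting interval -2.66 to -0.94). ECP63 (Cs6g15810), named after a carrot embryo protein, stood at 0.537 in light drought against 1.35 in normal water (-0.83, counting interval -2.02 to -0.67). D-34 (Cs9g07030), a seed maturation protein, stood at 0.976 in light drought against 2.19 in normal water (-0.87, counting interval -1.79 to -0.57). ECP63 and D-34 are the LEA genes nearest outside the 2-fold limit apart from NDR1/HIN1-like protein 26, and their RPKM ratios without the pseudocount, -1.33 and -1.17 on the log2 scale, lie beyond it.

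The summed level of these 7 genes was RPKM 6432 in light drought and 5655 in normal water, a sum in which Lea5 outweighs the rest. Lea5 made up 92.6% of the sum in light drought and 72.3% in normal water, and orange1.1t02243 made up 7.23% in light drought and 27.1% in normal water. Counted as reads, without regard to length, the order turned round, with 68500 reads in light drought and 83423 in normal water, since the Lea5 model is short and orange1.1t02243 longer.

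The list by description text (late embryogenesis, dehydrin, cold-regulated and the like) matched 7 genes, 2 of them lower and 0 higher, with a median of -0.83. Both lower genes, D-29 and the 11 kDa gene, were chosen on their values, and of the other 4 genes beside Lea5 0 were lower. Of these 4, 2 had ratios below 0, and their median was -0.13, against -0.23 in the described table. It also took in a cold-regulated plasma membrane protein (Cs5g28320), at 25.1 in light drought and 16.8 in normal water (0.57), and sugar transporter ERD6-like 7 (Cs5g32090), at 3.55 in light drought and 2.01 in normal water (0.69), neither of them a LEA protein. No gene described as a dehydrin was matched, so dehydrins were not assessed here.

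Among the kept genes of other seed proteins, 3 had ratios below 0 and 1 had a ratio above 0. Of 5 genes matched to seed storage and oil body proteins, 4 were kept and 2 of those were lower and 0 higher (14.9% lower in the described table), with a median of -0.71 and a summed RPKM of 49.2 in light drought and 98.1 in normal water. The vicilin-like storage protein At2g28490 (Cs8g17030) stood at RPKM 0.588 in light drought (35 reads) against 7.55 in normal water (465 reads; log2 ratio -2.89, counting interval -4.22 to -3.19), and passed the minimum through the normal water library alone. The vicilin-like protein At2g18540 (Cs1g23800) stood at 38.9 in light drought against 79.1 in normal water (-1.01). Oleosin 1 (orange1.1t03751), of oil bodies, stood at 4.87 in light drought and 6.62 in normal water (-0.41). A peroxygenase (Cs3g02670) stood at 4.65 in light drought and 3.94 in normal water (0.21), and none of the 5 was at 0 in either library. The gene not kept, vicilin-like antimicrobial peptides 2-2 (Cs5g30980), stood at 0.165 in light drought (10 reads) and 0.876 in normal water (55 reads). Its counting interval ran from -3.55 to -1.42. Of 9 genes matched to shoot meristem and buds, 4 were lower and 0 higher, against 14.9% lower in the described table. Through the normal water library alone 3 of the 9 passed the minimum, 2 of them among the 4 lower, so their ratios had to be below 0. Through the light drought library alone 1 of the 9 passed, so its ratio had to be above 0. Ratios below 0 were found for 7 of the 9 and above 0 for 2, with a median of -0.95, against -0.23 in the described table. Their summed RPKM was 82.8 in light drought and 74.5 in normal water. That sum is led by 1 of the 2 genes above 0, the dormancy-associated protein homolog 3 (Cs3g14440), at 67.5 in light drought and 43.8 in normal water. Photosynthesis genes, 24 of 24 kept, summed to 922 in light drought and 641 in normal water. Ratios above 0 were found for 23 of the 24, against 897 of 2055 in the described table, with a median of 0.58. By the rule 1 of the 24 was lower and 1 higher, against 14.9% and 5.99% in the described table. The 3 phloem genes summed to 5.47 in light drought and 9.53 in normal water, and no description matched the xylem list. In the phloem list 2 ratios lay below 0 and 1 above 0, and 0 genes were lower or higher by the rule. These lists cover the described table alone and name tissues that other organs hold too, so they cannot check the stem label. The part of these cell types in the values of the 6 genes was not tested, and in bulk stems fewer cells of a type and less RNA per cell cannot be told apart.

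The authors' deposited table gives statistics for 5 of the 6 genes, all lower, and none for Lea5. The genes listed as lower in the authors' deposited table are 2.51% of all 23159 genes. The log2 fold changes in the authors' deposited table are -3.46 for ABI5, -1.12 for SAPK2, -1.34 for the 8'-hydroxylase, -2.61 for D-29 and -1.62 for the 11 kDa gene. The false discovery rates in the authors' deposited table are 2.11e-15, 1.07e-05, 6.19e-07, 1.65e-16 and 2.05e-09 in the same gene order. For the neighbours, the authors' deposited table gives -3.90 for Cs6g14960 and -1.72 for orange1.1t02243. ECP63 and D-34, under 2-fold here, are listed as lower in the authors' deposited table at -1.32 and -1.16, as is PYR1 at -1.03 with a false discovery rate of 0.0627. Genes with a higher false discovery rate than PYR1 are listed there too, so being listed is not a strict call. These statistics come from 1 library per group and compare the libraries, not the conditions.

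For likeness over the 2 libraries, the nearest described genes were found by distance in the plane of log2(RPKM + 0.5). Nearest to ABI5 was heavy metal-associated isoprenylated plant protein 32 (Cs9g06110), at RPKM 0.308 in light drought and 3.17 in normal water (distance 0.16), then JINGUBANG (Cs5g06530, 0.35). Nearest to SAPK2 was MYB1R1 (Cs7g07830), a MYB-type transcription factor, at RPKM 14.5 in light drought and 30.1 in normal water (0.08). Nearest to the 11 kDa gene was snakin-1 (Cs8g04550), at RPKM 8.32 in light drought and 26.2 in normal water (0.05), and to D-29 Cs3g24260, a hypothetical protein (0.12). The pair nearest to the 8'-hydroxylase were Cs4g06970 (0.09) and the LEA-14 gene Cs3g23380 (0.17). No described gene came near the level of Lea5, where the nearest lay at 2.92. With 2 libraries such likeness rests on 2 values per gene.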

How the data were processed

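Expression in 1 light drought and 1 normal water library was analysed. The authors deposited RPKM values for 23159 genes, whose length column equals the merged exons of each gene. Per the labels' protocols, a stranded mRNA kit was applied to TRIzol RNA. Per the submitters' processing notes, Trimmomatic 0.36 was used. Which build, aligner and counter were used, and whether strand was counted, is not given in these sources; coordinates are as in the files. RPKM multiplied by length came out as whole reads (tolerance 0.01 read) for 100% of values in both libraries, and counting intervals use those reads. Another deposited table annotates 2568 genes, with the authors' p-value, log2 fold change and false discovery rate for 820. No identifier matched the reference gene table (0 matches), so no sequence is shown.

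The 6 genes and the lists were chosen with earlier results of these data known, and the lists by Pfam, InterPro, GO and KEGG entry after values were seen. Named were the 6 genes, the matched abscisic acid and LEA genes, up to 2 genes of other lists, the next gene models and the nearest described genes. The dormancy homolog, oleosin 1, the peroxygenase and the vicilin-like antimicrobial peptides gene were named after their values were seen. In the root, surface and pollen lists 7, 9 and 1 genes were kept, with median log2 ratios of -0.46, -0.62 and -1.13. The list of other bZIP factors by description matched 0 genes. Calls at 2-fold used a pseudocount of 0.5 and a minimum RPKM of 1. The code was tested on simulated data. Alternatives were other pseudocounts, minimums and scalings and a 1.5-fold threshold. Software was Python 3.11.15 with pandas 2.3.3, scipy 1.17.1, numpy 2.4.6 and matplotlib 3.10.9.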

Additional observations from a re-analysis of the deposited data

How the results depend on the processing

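No paired analysis was possible because the groups hold a single library each, so none was left out either. The count of 5 lower and 0 higher among the 6 genes held in each alternative but a minimum RPKM of 5, where ABI5 drops out by construction and 4 are lower. Without a pseudocount, chosen after seeing the data, ABI5 stood at -3.47, and with equal sums of RPKM Lea5 stood at 0.50. Over all kept genes, 204 were lower and 88 higher with a pseudocount of 1, and 208 higher with 0.1. With equal sums 513 were lower. With a minimum RPKM of 5, 159 were lower and 68 higher, and at 1.5-fold 965 were lower and 631 higher. By description, 4 LEA genes were lower with a pseudocount of 0.1 and 4 at 1.5-fold; by Pfam or InterPro, 7 in each. Lower phosphatases numbered 0 with a pseudocount of 1 and 0 at a minimum RPKM of 5. Hormone signalling genes lower by KEGG numbered 2 with a pseudocount of 1, 0 at a minimum RPKM of 5 and 8 at 1.5-fold. At a minimum RPKM of 5, 1 response gene, 1 gene by GO and 1 bZIP gene were lower, and the median of the GO list was 0.099, against -1.11 at a minimum of 1, since genes under the minimum leave the list. By the same minimum the bZIP median was -1.48, against 0.08 at a minimum of 1, and the hormone signalling median 0.0014, against -0.33. The median of all kept genes lay within 0.05 of 0 in each alternative. With no minimum the medians were -0.76 for breakdown and -0.999 for transport. At 1.5-fold 1 receptor was lower. Apart from genes that leave or enter by a minimum or threshold, the cause was not tested. Depth limits genes such as ABI5, Cs6g14960 and the LEA-18 gene, at 12, 11 and 16 reads in light drought.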

Other observations

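Of the 22 genes that KEGG places in plant hormone signalling, 20 were kept, of which 5 were lower and 0 higher, with a median log2 ratio of -0.33. Without ABI5, which was chosen on its values, 4 of 19 were lower, against 14.9% in the described table and 2.12% of all kept genes. Of those 4, phosphatase 2C 75, cyclin-D3-1 and the phosphotransfer protein passed the minimum through the normal water library alone. Beside ABI5 and phosphatase 2C 75 the lower ones belong to other hormones. Cyclin-D3-1 (Cs3g23120), a cell cycle gene that cytokinin induces in Arabidopsis, stood at RPKM 0.392 in light drought, against 1.88 in normal water (log2 ratio -1.42). Histidine-containing phosphotransfer protein 1 (Cs5g34860), of the cytokinin relay, stood at 0.315 in light drought, against 1.14 in normal water (-1.01). A xyloglucan endotransglucosylase (Cs4g03130), a cell wall enzyme, stood at 1.70 in light drought, against 4.05 in normal water (-1.04).

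Carotenoids are the source of abscisic acid. Of 6 genes that KEGG places in carotenoid synthesis, 4 were kept, and the 8'-hydroxylase, chosen on its values, was the 1 lower gene among them. Phytoene synthase (Cs6g15910), the first enzyme of the pathway, stood at RPKM 36.7 in light drought and 23.4 in normal water (0.64), short of 2-fold. Carotenoid cleavage dioxygenase 4 (Cs7g14820) stood at 2.17 in light drought and 1.52 in normal water (0.41). These genes were chosen after their values were seen.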
